A study of Homo sapiens with 32 samples.

Results

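Bicalutamide given without androgen was compared with its vehicle, ethanol, in LNCaP cells by cap analysis of gene expression (CAGE), which counts the capped 5′ ends of RNAs and so marks where transcription started. LNCaP is an androgen-responsive human prostate cancer line that was derived from a lymph node metastasis. The comparison rests on 4 of the series' 32 libraries, chosen by their labels. These are LNCaP cells with 1 µM bicalutamide for 6 h and for 24 h, and LNCaP cells with ethanol for 6 h and for 24 h. Each condition had 1 library at each hour, so the 2 hours stood in for replicates. The p-values below therefore measure how far treatment differences varied between 6 h and 24 h, and not the spread between cultures. Cells of all groups had been kept beforehand in medium with charcoal/dextran-treated serum, which holds little hormone. The treatment protocol shared by the labels names only a vehicle and R1881, a synthetic androgen, so the dose of bicalutamide is known here from the sample characteristics alone.

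Other libraries were used for orientation. LNCaP cells also received 10 nM dihydrotestosterone (DHT, the main androgen of the prostate) with 1 µM bicalutamide, or 10 nM DHT alone, and 1 library was made before treatment (0 h). BicR, a further line of prostate cancer cells with a name that goes unexplained in the labels, had the same 9 conditions. A time course of R1881 in LNCaP supplied 14 libraries.

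The androgen receptor is a nuclear receptor that moves to the nucleus and binds DNA once an androgen occupies its ligand pocket. It then raises transcription at one set of genes and lowers it at another. Bicalutamide is a non-steroidal antagonist that competes with androgens for that pocket. In cells without added hormone there is little androgen to displace, and such a comparison asks what the antagonist does by itself.

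The bicalutamide libraries held 7607326 (6 h) and 6830652 (24 h) tags in the table, and the ethanol libraries held 5742167 (6 h) and 6635133 (24 h). In RPM (tags scaled to a common library total), 3 tags were worth 0.332 and 0.364 RPM with bicalutamide and 0.445 and 0.379 RPM with ethanol. The table lists 13294 single positions in hg19, and 13214 of them passed the filter on low counts. It pairs no position with a gene, so start sites are given by chromosome, position and strand, and whether a site is exonic, intronic or in a UTR is not given here. The cell line could not be checked against marker genes for the same reason.

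One library stood apart. A set of 221 positions held under 1 RPM in at least 15 of the 18 libraries of the table, and these are called near-empty sites below. LNCaP with bicalutamide at 6 h held 5426 tags at them, or 0.0713% of its tags in the table. LNCaP with bicalutamide at 24 h held 88 tags there, and the ethanol libraries held 62 (6 h) and 68 (24 h). The same positions carried 1082 tags in LNCaP with DHT and bicalutamide at 6 h and 38244 tags in BicR with DHT and bicalutamide at 6 h. The other 12 libraries held 48 to 187 tags each. Those 3 libraries were thus the ones with many tags at near-empty sites. The definition limits how many libraries can reach 1 RPM at each site, but not which ones. At 220 of the 221 sites the level in LNCaP with bicalutamide at 6 h was a median of 9.13% of the level in BicR with DHT and bicalutamide at 6 h, with an interquartile range of 4.59% to 11.6%. Across those 220 sites the log2 levels of these 2 libraries correlated at r = 0.73, a description over sites that were selected for being near 0 elsewhere. Of the 221 sites, 220 reached 10 RPM in BicR with DHT and bicalutamide at 6 h, and 9 did in LNCaP with bicalutamide at 6 h. No position under 10 RPM in all 18 libraries is listed, so most of these sites were listed through that BicR library. Its lead and the ratio to it are therefore partly set by the listing. Results at near-empty sites are given apart.

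**Figure D1:**
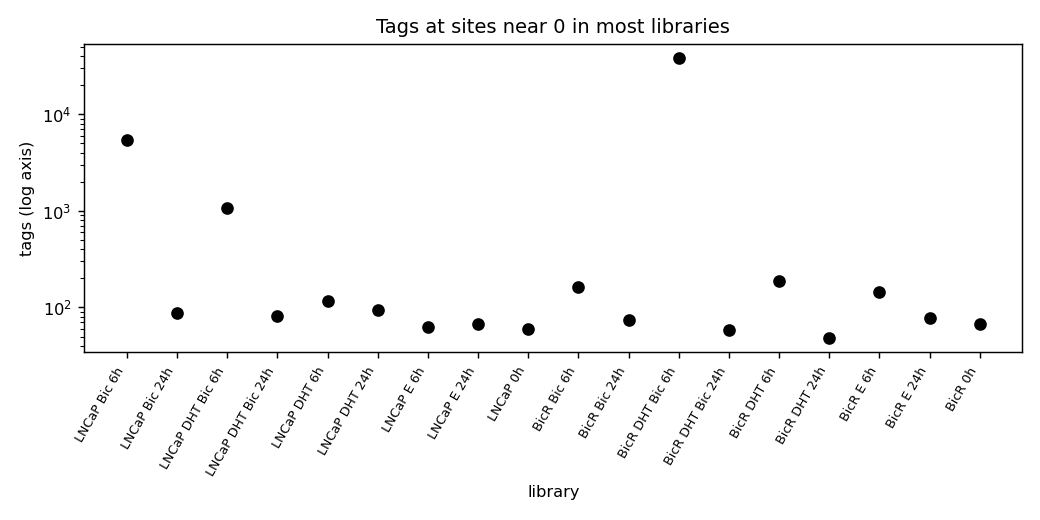
Tags at the 221 near-empty sites in each of the 18 libraries (log axis, 1 point per library, LNCaP left and BicR right). LNCaP with bicalutamide at 6 h lies at 5426 tags, against 88 tags at 24 h and 62 and 68 tags in the LNCaP ethanol libraries.

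Bicalutamide alone moved hardly any start site past the threshold in this design. Of 13214 start sites tested with edgeR's quasi-likelihood test, 1 was higher with bicalutamide at an adjusted p under 0.05 (0.00757% of sites tested) and 0 were lower (0.0%). At an unadjusted p under 0.05 there were 256 sites (1.94%), 193 of them higher (1.46%) and 63 lower (0.477%). That share is below what this cutoff would pass if no site changed, so these sites are not shown to respond. Of those 193, 56 were near-empty sites, which left 137 higher and 63 lower. DESeq2 called 2 sites (0.0151%), both higher and both others than the site that edgeR called.

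The called site was on chromosome 6 (position 87804823, minus strand, hg19). It held 504 tags, or 55.8 RPM, with bicalutamide at 6 h and 0 tags with bicalutamide at 24 h, against 0 tags in both ethanol libraries. All of its signal in this comparison therefore came from 1 library, and the bicalutamide and ethanol groups were tied at 0 at 24 h. With 3 tags set in place of 0 in the ethanol library of the same hour, the level with bicalutamide at 6 h was about 126-fold higher. The adjusted p was 0.0485 by edgeR. Without the bicalutamide library of 6 h the adjusted p was 1, and DESeq2 gave 1 with all libraries. The call was also lost without the bicalutamide library of 24 h and without the ethanol library of 6 h, and the adjusted p ran from 0.00078 to 1 over the alternatives. The site was also filled in LNCaP with DHT and bicalutamide at 6 h (16.002 RPM) and in BicR with DHT and bicalutamide at 6 h (517 RPM), and lay between 0 and 1.31 RPM in the other 15 libraries. It missed the definition of a near-empty site by 1 library, BicR with DHT at 6 h at 1.31 RPM. It was 1 of 10 sites that reached 10 RPM or more with bicalutamide at 6 h and stayed under 1 RPM in the other 3 libraries of the comparison. Of these 10, 9 were near-empty sites. The same definition found 0 sites for the bicalutamide library of 24 h and 0 for each ethanol library. A median of 15.8 RPM was found at the 10 sites with bicalutamide at 6 h, beside 4.0005 RPM in LNCaP and 137 RPM in BicR with DHT and bicalutamide at 6 h.

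The size of the changes was small at both hours. Among 10732 sites that averaged 10 RPM or more in the 4 libraries and were not near-empty, the log2 ratio of bicalutamide to ethanol (after adding 0.5 RPM) had a median of -0.04 at 6 h and -0.07 at 24 h. Its SD across sites was 0.23 at 6 h and 0.21 at 24 h. The ratio lay within 0.5 log2 units of 0 at 97.6% of sites at 6 h and at 97.1% at 24 h. At least 2-fold higher levels were found at 18 sites at 6 h and at 5 sites at 24 h, and at 0 sites at both hours. Of the 18 sites at 6 h, 4 held at least 10 times the RPM of any other BicR library in BicR with DHT and bicalutamide at 6 h, which had the most tags at near-empty sites. This was so at 12 of all 10732 sites. They include the chromosome 6 site above and a site on chromosome 11 (position 71903183, plus strand), both outside the definition of near-empty. The chromosome 11 site held 97.4 and 3.16 RPM with bicalutamide at 6 h and 24 h, against 3.11 and 2.40 RPM with ethanol, and 921 RPM in that BicR library. At least 2-fold lower levels were found at 7 sites at 6 h and at 4 sites at 24 h, and at 1 site at both hours. Among the 3311 sites with a mean of at least 50 RPM, 0 passed a 2-fold change at either hour.

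The changes at 6 h and 24 h showed no positive correlation. Across the 10732 sites the 6 h and 24 h log2 ratios, which share no library, correlated at r = -0.10, and they had the same sign at 49.9% of sites. Among the 667 sites with at least 200 RPM the correlation was 0.0039, near 0 for highly used sites as well. The 2 bicalutamide libraries lay above both ethanol libraries in RPM at 1073 of 13214 sites (8.12%) and below both at 2640 sites (20.0%). None of these passed the adjusted threshold by edgeR, since the 1 called site was tied at 0 at 24 h. The 2 sites that DESeq2 called were among the higher ones. The median ratios in RPM lay below 0 at both hours. In the edgeR fit, which normalizes between libraries, the median log2 change over all sites was -0.00393, with 6455 higher and 6758 lower. The surplus of lower sites in RPM is therefore not read as a broad fall.

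**Figure D2:**
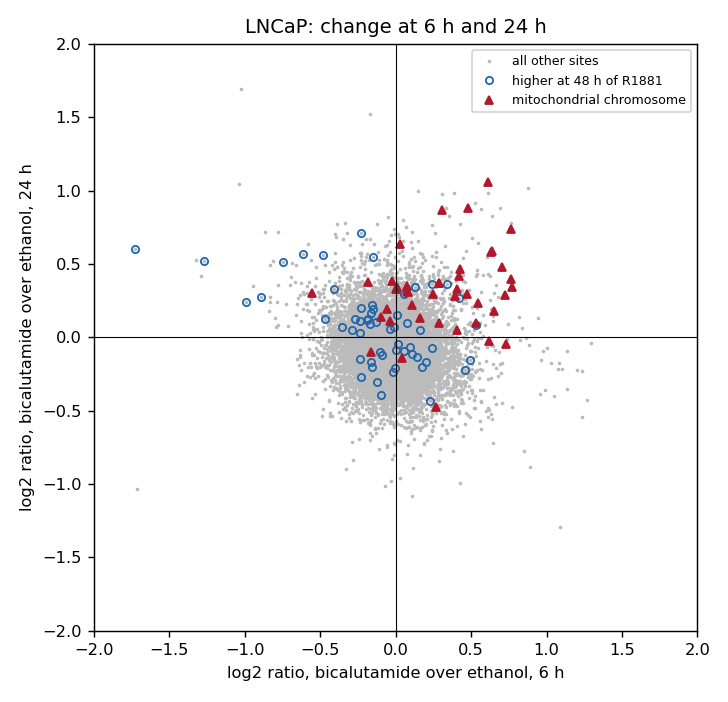
Log2 ratio of bicalutamide to ethanol in LNCaP at 6 h (x) and at 24 h (y) for the 10732 sites that averaged 10 RPM or more and were not near-empty, 4 of which lie outside the axes. The cloud shows no diagonal (r = -0.10), while the mitochondrial sites (triangles) sit mostly in the upper right and the sites that were higher at 48 h of R1881 (circles) spread around 0.

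Among sites of at least 10 RPM, 3 of the 16 leading ones came nearest to the threshold, at an adjusted p of 0.0966. Near-empty sites shared that value, among them chromosome 5 position 38595506. Without the near-empty sites the adjusted p by edgeR was 0.182 at each of the 3 (on chromosomes 14, X and 17). With the 8 LNCaP libraries alone it was 0.0479, 0.0600 and 0.0521. The 8 leading higher sites by p had log2 changes of 0.55 to 0.90, mean levels of 23.0 to 1056 RPM and adjusted p-values of 0.0966 to 0.846 in edgeR's quasi-likelihood test. Their bicalutamide and ethanol libraries did not overlap at any of the 8, a separation that the choice by p favours.

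A site on chromosome 14 (position 50053093, minus strand) held 421 and 439 RPM with bicalutamide at 6 h and 24 h, against 270.5 and 247 RPM with ethanol. Both bicalutamide libraries were above both ethanol libraries. The ratio was 1.56 at 6 h (95% exact interval 1.47 to 1.65) and 1.78 at 24 h (1.68 to 1.88), intervals that cover counting error only. The fitted log2 change was 0.78 (SE 0.12), with an adjusted p of 0.0966 in edgeR and 0.000162 in DESeq2. This was 1 of the 2 sites that DESeq2 called. The remaining LNCaP libraries were near the bicalutamide level: 443 RPM at 0 h, 438 and 409 RPM with DHT and bicalutamide, and 462 and 404 RPM with DHT. In BicR, which shares no library with LNCaP, the site held 287 and 271 RPM with bicalutamide, against 241 and 221 RPM with ethanol (log2 0.32, SE 0.12, adjusted p 0.58 by edgeR). The order of the groups was the same in both lines.

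The other site that DESeq2 called was on the X chromosome (position 119005813, plus strand). It held 252 and 282 RPM with bicalutamide, against 165 and 142 RPM with ethanol, and the groups did not overlap. The fitted log2 change was 0.86 (SE 0.14), with an adjusted p of 0.0966 in edgeR and 0.000489 in DESeq2. It held 298 RPM at 0 h, 291 and 246 RPM with DHT and bicalutamide, and 287 and 226 RPM with DHT. In BicR it held 167 and 146 RPM with bicalutamide, against 123 and 109 RPM with ethanol (log2 0.49, SE 0.14, adjusted p 0.312 by edgeR). At both sites the ethanol libraries were the lowest of the 9 LNCaP libraries.

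The 8 leading lower sites had log2 changes of -1.38 to -0.35, and 7 of them had an adjusted p of 0.9999 by edgeR. The first was on chromosome 17 (position 41152046, plus strand), with 6.43 and 8.75 RPM with bicalutamide at 6 h and 24 h, against 22.2 and 18.5 RPM with ethanol. This was the single site at least 2-fold lower at both hours. Its ratio was 0.289 at 6 h (95% exact interval 0.210 to 0.394) and 0.474 at 24 h (0.352 to 0.633), and its fitted log2 change was -1.38 (SE 0.23, adjusted p 0.0966 by edgeR). The level was 7.11 RPM at 0 h, 8.16 and 9.39 RPM with DHT and bicalutamide, and 6.73 and 8.29 RPM with DHT, so that the ethanol libraries were the highest of the LNCaP set. In BicR it was 11.6 and 11.9 RPM with bicalutamide, against 17.5 and 15.5 RPM with ethanol. The second lower site was on chromosome 20 (position 62153343, plus strand), with 30.5 and 33.8 RPM with bicalutamide, against 45.1 and 45.3 RPM with ethanol. Its fitted log2 change was -0.45 (SE 0.13, adjusted p 0.9999 by edgeR). In BicR it held 26.9 and 32.6 RPM with bicalutamide, against 42.6 and 46.2 RPM with ethanol. At both lower sites the groups did not overlap in either line.

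**Figure D3:**
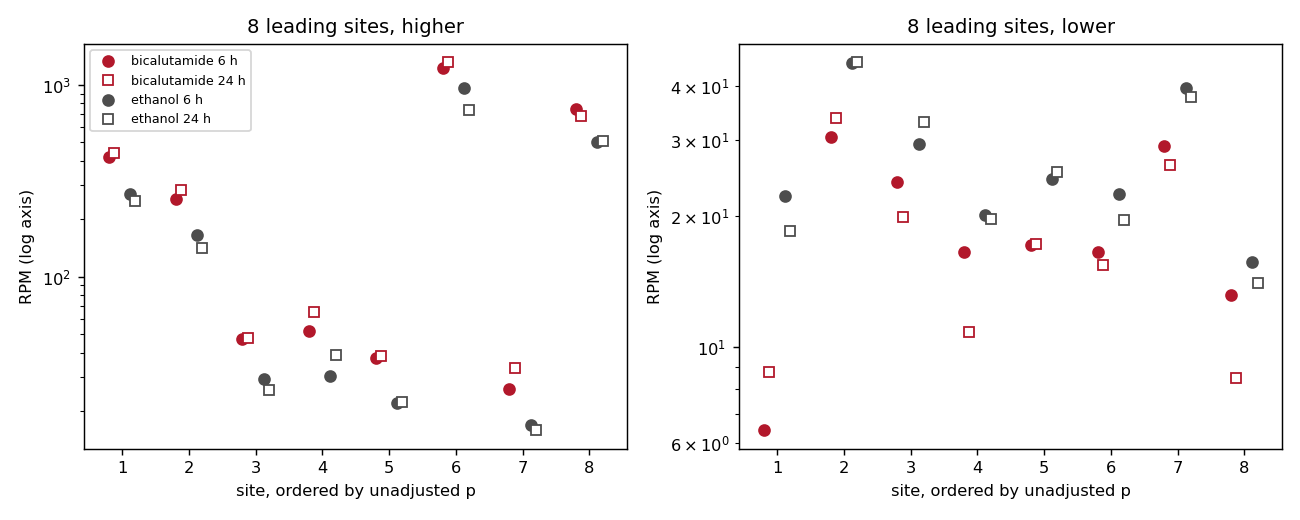
RPM (log axis) in the 2 bicalutamide libraries (left of each pair, red) and the 2 ethanol libraries (right, grey) at the 8 leading higher sites and the 8 leading lower sites by unadjusted p; circles are 6 h and open squares 24 h. The groups do not overlap at any of the 16 sites, the first lower site being the chromosome 17 site at 6.43 and 8.75 RPM with bicalutamide, against 22.2 and 18.5 RPM with ethanol.

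Where the ethanol libraries stood among the 9 LNCaP libraries was then counted over sites that were not near-empty, a count added after the sites above had been seen. At 8 of the 8 leading higher sites the ethanol libraries were the 2 lowest of the 9, and at 4 of the 8 leading lower sites they were the 2 highest. The bicalutamide libraries were the 2 highest at 0 of the 8 higher sites and the 2 lowest at 1 of the 8 lower sites. Over the 137 higher sites at an unadjusted p under 0.05, the ethanol libraries were the 2 lowest at 56 (40.9%) and the bicalutamide libraries the 2 highest at 7 (5.11%). Over the 63 lower sites, the ethanol libraries were the 2 highest at 22 (34.9%) and the bicalutamide libraries the 2 lowest at 10 (15.9%). Among all 13073 tested sites that were not near-empty, the ethanol libraries were the 2 lowest at 1.35% and the 2 highest at 4.99%, and the bicalutamide libraries were the 2 highest at 0.834% and the 2 lowest at 1.41%. Sites chosen by this contrast must have low ethanol or high bicalutamide values, so these counts describe which group stood away from the rest and carry no test.

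Sites of the mitochondrial chromosome shifted together in direction. They were singled out after the values were seen and carry no test. The mitochondrial genome is transcribed from both strands as long RNAs by its own polymerase, and its RNAs lack a nuclear-type cap. The 42 mitochondrial sites with at least 10 RPM had a median log2 ratio of 0.30 at 6 h and 0.31 at 24 h. The medians of the other 23 chromosomes lay between -0.08 and 0.01 at 6 h and between -0.10 and -0.04 at 24 h. The ratio was above 0 at both hours at 31 of the 42 sites and below 0 at both hours at 1. Both bicalutamide libraries lay above both ethanol libraries at 26 of the 42 and below them at 0, whereas over all sites tested these shares were 8.12% and 20.0%. At an unadjusted p under 0.05 there were 16 of the 42, beside 1.94% of all sites tested, and 0 passed the adjusted threshold. The plus strand had 30 of these sites, with medians of 0.29 at 6 h and 0.29 at 24 h. The minus strand had 12, with medians of 0.44 at 6 h and 0.37 at 24 h, and 11 of them were higher at both hours.

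A plus-strand site at mitochondrial position 7642 held 52.1 and 65.6 RPM with bicalutamide at 6 h and 24 h, against 30.4 and 39.2 RPM with ethanol (log2 0.80, SE 0.17, adjusted p 0.422 by edgeR). A minus-strand site at position 2226 held 26.0 and 33.4 RPM with bicalutamide, against 16.9 and 15.8 RPM with ethanol (log2 0.90, SE 0.21, adjusted p 0.827 by edgeR). The groups did not overlap at either site. Over all 49 mitochondrial positions of the table, the share of the library was 3.64% and 4.65% with bicalutamide at 6 h and 24 h, against 3.22% and 3.69% with ethanol. The share was higher with bicalutamide within each hour, but the 6 h bicalutamide library lay below the 24 h ethanol library. It was 3.48% at 0 h, 3.93% and 4.20% with DHT and bicalutamide, and 3.86% and 4.05% with DHT. In BicR it was 4.85% and 3.42% with bicalutamide, against 4.58% and 3.05% with ethanol, again higher within each hour. The minus strand alone went the other way in BicR. Its share was 0.0556% and 0.0417% with bicalutamide at 6 h and 24 h, against 0.0613% and 0.0464% with ethanol. Whether the share of mitochondrial RNA in the samples bears on this was not tested.

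Sites that androgens move had median changes near 0 with bicalutamide alone. R1881 raised 223 of 15999 tested clusters at 48 h against 0 h (1.39%) and lowered 79 (0.494%), of which 102 and 56 had the same site name in the table used here. These lists come from libraries that the bicalutamide comparison does not share. With the replicate number of the time course as a block, R1881 raised 793 clusters (4.96%) and lowered 573 (3.58%), of which 372 and 386 were in the table. The median change with bicalutamide was 0.01 at those 372 sites and -0.04 at those 386. At an unadjusted p under 0.05 there were 1 and 3 of them. The 102 raised sites had a median fitted log2 change with bicalutamide of 0.03, with 59 higher and 43 lower, and the 56 lowered sites had a median of -0.02, with 26 higher and 30 lower. All 13214 sites had a median of -0.00393, with 6455 higher and 6758 lower. None of the 158 listed sites passed the adjusted threshold, and at an unadjusted p under 0.05 there were 0 raised sites and 1 lowered site, beside 1.94% of all sites. By hour, the medians of log2 ratios were -0.03 and 0.07 for the raised sites and -0.00314 and -0.13 for the lowered sites, at 6 h and 24 h, beside -0.03 and -0.06 over all sites. Bicalutamide and ethanol libraries did not overlap at 10 raised sites in the higher direction (9.80% of the list, 8.12% of all sites) and at 12 in the lower direction (11.8% of the list, 20.0% of all sites). At 6 h, 7 of the 102 raised sites were at least 2-fold from ethanol (6.86%), 4 higher and 3 lower, beside 226 of 13214 sites (1.71%). Of those 226, 138 were near-empty sites, whereas 0 of the 7 were, so the share over all sites is raised by them. Of those 7, 5 averaged under 10 RPM in the 4 libraries. At 24 h there were 0 of the 102.

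Among listed sites with at least 10 RPM and a shared name, the one that R1881 raised most was on chromosome 6 (position 35656691, minus strand, log2 5.08 at 48 h). It held 35.8 and 32.3 RPM with bicalutamide at 6 h and 24 h, against 28.2 and 25.02 RPM with ethanol (log2 0.40, SE 0.47, 95% interval -0.61 to 1.42). It held 62.1 and 28.2 RPM with DHT and bicalutamide, and 108 and 37.5 RPM with DHT. The bicalutamide libraries were above the ethanol libraries, but by less than the SE of the fit. On chromosome 21 (position 42880084, minus strand, R1881 log2 4.38) the levels were 30.5 and 43.7 RPM with bicalutamide, against 35.7 and 38.0 RPM with ethanol, and the groups overlapped. The 95% interval of its log2 change was -0.79 to 0.93. It held 217 and 93.3 RPM with DHT and bicalutamide, and 299.8 and 245 RPM with DHT, each above all 4 libraries of the comparison. Within the same limits, the site that R1881 lowered most was on chromosome 10 (position 54789868, minus strand, log2 -8.98). It held 70.0 and 60.5 RPM with bicalutamide, against 61.5 and 57.8 RPM with ethanol, and 34.9 and 13.9 RPM with DHT. Its 95% interval with bicalutamide was -0.88 to 1.22, so a change of more than 2-fold in the higher direction was not excluded by this fit.

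DHT in LNCaP gave 16 higher sites (0.121% of sites tested) and 1 lower site (0.00757%). That comparison shares the ethanol libraries with the bicalutamide comparison, so its values are set side by side only. At the 16 sites the median fitted log2 change was 0.18 with bicalutamide alone, with 11 higher and 5 lower, and 2.65 with DHT. Both bicalutamide libraries lay above both ethanol libraries at 6 of the 16 (37.5%) and below them at 2 (12.5%), beside 8.12% and 20.0% of all sites tested. The choice of these sites favours low values in the shared ethanol libraries, so the 37.5% is partly set by it. A site on chromosome 19 (position 51358170, plus strand) held 467 and 449.8 RPM with bicalutamide, against 434 and 357 RPM with ethanol. The same site held 1665 and 1306 RPM with DHT and bicalutamide, and 1504 and 2190 RPM with DHT. Its log2 change with bicalutamide alone was 0.26 (SE 0.20, 95% interval -0.17 to 0.69), and that with DHT was 2.27 (SE 0.21). A further site on chromosome 19 (position 51376694, plus strand) held 63.9 and 39.9 RPM with bicalutamide, against 40.5 and 32.2 RPM with ethanol, and the groups overlapped. It held 303 and 139 RPM with DHT and bicalutamide, and 306 and 319.8 RPM with DHT. The chromosome 14 site described above was among the 16, with a log2 change of 0.78 with bicalutamide alone and 0.79 with DHT. The single lower site was the chromosome 17 site, at -1.38 with bicalutamide alone and -1.40 with DHT. At these 2 sites the ethanol libraries that both comparisons share stood apart from the other 7 LNCaP libraries.

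The same question was put to the BicR line. With bicalutamide alone BicR had 21 higher sites (0.159%) and 5 lower sites (0.0378%), chosen on the BicR libraries. At the 21 the median fitted log2 change was 0.07 in LNCaP, with 12 higher and 9 lower, beside 2.18 in BicR, the line that chose them. Of the 21, 11 averaged at least 10 RPM in the 4 LNCaP libraries, with the same median of 0.07. The 4 with the largest BicR change averaged 0.378 to 1.39 RPM there, levels at which few tags were counted. At the 5 it was -0.09 in LNCaP, with 2 higher and 3 lower, beside -1.02 in BicR. In LNCaP 0 of the 26 passed the adjusted threshold, and 1 of them had an unadjusted p under 0.05, beside 1.94% of all sites tested. The first of the 21, on chromosome 13 (position 95868500, minus strand), held 1.22 and 1.09 RPM with bicalutamide in LNCaP, against 1.48 and 1.77 RPM with ethanol. In BicR it held 4.75 and 6.16 RPM with bicalutamide, against 0.130 and 0.134 RPM with ethanol, so the lines also differed in their ethanol level. The chromosome 21 site was likewise among them, at 105 and 60.7 RPM with bicalutamide in BicR, against 15.5 and 14.7 RPM with ethanol. Among the 5, a site on chromosome 3 (position 3841114, plus strand) held 50.1 and 60.02 RPM with bicalutamide in LNCaP, against 53.1 and 68.2 RPM with ethanol, and the groups overlapped. In BicR it held 37.7 and 61.8 RPM with bicalutamide, against 89.7 and 112 RPM with ethanol.

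**Figure D4:**
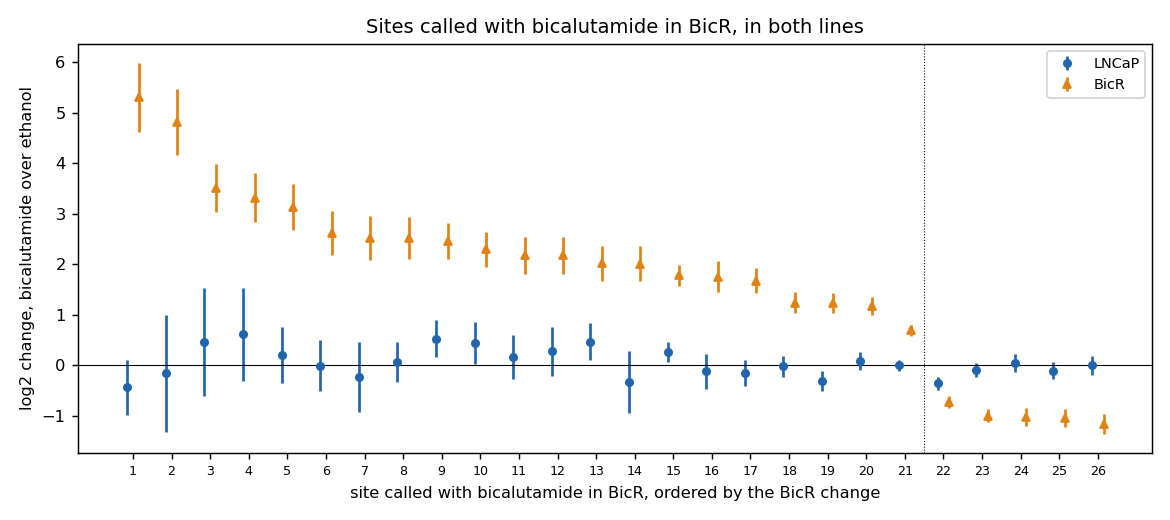
Fitted log2 change of bicalutamide over ethanol (bars, 1 SE) at the 21 sites higher and the 5 sites lower in BicR, in LNCaP (circles) and in BicR (triangles), ordered by the BicR change that chose them. In LNCaP the points scatter around 0, with medians of 0.07 and -0.09.

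The difference between the lines was tested across all sites. At an adjusted p under 0.05, 0 of 13214 sites (0.0%) differed between LNCaP and BicR in the response to bicalutamide by edgeR, 415 (3.14%) did at an unadjusted p under 0.05, and DESeq2 called 9 (0.0681%). No single site of the lists above is therefore shown by edgeR to respond differently in the lines. The list medians did differ. The 102 sites that R1881 raised had a median log2 change with bicalutamide of 0.67 in BicR, beside 0.03 in LNCaP. The 56 that it lowered had -0.50 in BicR, beside -0.02 in LNCaP. For the line difference by edgeR, 31 of the 102 and 9 of the 56 had an unadjusted p under 0.05. Over all sites that share was 3.14%. No test was run on the lists as sets. Larger sets chosen with DHT in BicR gave medians near 0 in LNCaP with bicalutamide alone. The 294 sites that DHT raised in BicR (2.22%) had a median of 0.04, and the 156 that it lowered (1.18%) had a median of -0.01. In BicR with bicalutamide their medians were 0.80 and -0.56, but the choice of these sites used the same BicR ethanol libraries. With that limit, 139 of the 294 and 68 of the 156 had an unadjusted p under 0.05 for the line difference by edgeR. Across the 10732 sites, log2 ratios in LNCaP correlated with those of BicR at r = 0.12 at 6 h and r = 0.13 at 24 h, comparisons that share the hour but no library.

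Whether bicalutamide acted differently without and with DHT in LNCaP was also tested across all sites. Here 0 of 13214 sites (0.0%) passed an adjusted p of 0.05 by edgeR, 155 (1.17%) passed at an unadjusted p under 0.05, and DESeq2 called 0. DHT with bicalutamide against DHT alone likewise gave 0 higher (0.0%) and 0 lower sites (0.0%) at that adjusted threshold by edgeR. The design thus called no site for bicalutamide with DHT present either. The 102 sites that R1881 raised had a median log2 change of -0.22 for DHT with bicalutamide against DHT. The 56 that it lowered had a median of 0.17, and all sites had 0.00285. These list medians carry no test. The log2 ratios of bicalutamide to ethanol correlated with those of DHT with bicalutamide to DHT at r = 0.09 at 6 h and r = -0.02 at 24 h, again with no library shared. The chromosome 21 site had a log2 change of 0.07 (SE 0.39) without DHT and -0.81 (SE 0.36) with DHT.

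Start site usage was compared among neighbours, since genes often have several promoters. Sites on the same strand were joined where the next lay within 10000 bp, and 1 of 1241 such neighbourhoods (0.0806%) changed unequally by edgeR's Simes test at an adjusted p of 0.00157. At an unadjusted p under 0.05 there were 10 neighbourhoods (0.806%). The neighbourhood that passed was that of the chromosome 17 site and spans 8337 bp on the plus strand, with sites at positions 41150435, 41152046 and 41158772. The middle site took 1.06% and 1.35% of the neighbourhood's tags with bicalutamide at 6 h and 24 h, against 3.79% and 3.97% with ethanol. It took 0.841% at 0 h, 1.14% and 1.54% with DHT and bicalutamide, and 0.983% and 1.43% with DHT. Thus the share was high in the 2 ethanol libraries and under 2% in the other 7 LNCaP libraries. In BicR it was 1.99% and 2.08% with bicalutamide, against 2.93% and 2.73% with ethanol. The first site of the neighbourhood held 589 and 622 RPM with bicalutamide, against 550.3 and 429 RPM with ethanol (log2 0.37, SE 0.14), and the third had a log2 change of -0.18. Leaving out either bicalutamide library or the ethanol library of 6 h gave 0 neighbourhoods past the threshold. Whether the 3 sites belong to 1 gene is not given by the table.

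**Figure D5:**
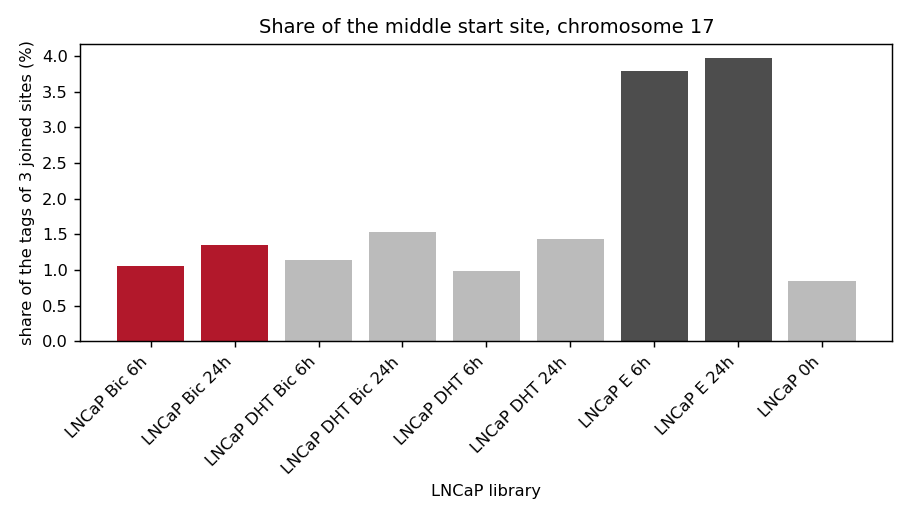
Share (%) of the tags of the 3 joined chromosome 17 sites that fell on the middle site in each of the 9 LNCaP libraries. The bicalutamide libraries (red) are at 1.06% and 1.35%, the ethanol libraries (dark grey) at 3.79% and 3.97%, and the other 5 libraries (light grey) between 0.841% and 1.54%.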

How the data were processed

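The labels and files describe 32 CAGE libraries from HeliScope sequencing, and the genome build is hg19 per the submitters' processing notes. The aligner and the site caller are not given in the sources used here. The deposited tag counts are whole numbers, and the RPM values deposited by the authors are these counts times 1 factor per library. For the 4 libraries compared, 83.0% to 85.2% of the implied total lies in the table. No listed position stayed under 10 RPM in all 18 libraries, so weaker sites are not covered. All value columns were matched to a sample.

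Counts were fitted with edgeR 4.0.16 in R 4.3.3 (TMM, filterByExpr with a minimum count of 10, quasi-likelihood F test, Benjamini-Hochberg over 13214 sites, threshold 0.05). The fit used the 16 treated libraries of both lines, with a coefficient per line and treatment and a term for 24 h against 6 h per line. SE is the size of the log2 change over the square root of F, and its 95% interval used the fit's degrees of freedom. DESeq2 1.42.0 was an alternative. The R1881 lists came from a fit of the 14 time course libraries. Its replicate numbers pair the libraries: differences between the numbers correlated at 0.14 to 0.57 (median 0.33, 15999 sites) in 21 of 21 pairs of times, so blocked counts are given too. Log2 ratios by hour used RPM plus 0.5, and a floor of 3 tags replaced 0 tags in ratios. Scripts were tested on simulated data.

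Named sites were the 8 each way with the smallest p and the 4 each way with the largest change among sites of at least 10 RPM that moved the same way at both hours, the leading sites of each list, and the called sites. At most a few of each are printed, since 0 site names matched the gene table, which is of another build. The gene lists planned for this comparison could not be used for that reason. The comparison, its sites and its lists were chosen with earlier results of these data known.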

Additional observations from a re-analysis of the deposited data

Results flagged for a closer look

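Signal at near-empty sites was found outside the 4 libraries compared. LNCaP with DHT and bicalutamide at 6 h held 1082 tags at these 221 sites, and BicR with DHT and bicalutamide at 6 h held 38244 tags, against 62 and 68 tags in the LNCaP ethanol libraries. LNCaP with bicalutamide at 6 h, which belongs to the comparison, held 5426. At 220 of the sites LNCaP with DHT and bicalutamide at 6 h had a median of 2.15% of the level in BicR with DHT and bicalutamide at 6 h, and the log2 levels correlated at r = 0.74. Those 220 sites all reached 10 RPM in that BicR library, against 0 in LNCaP with DHT and bicalutamide at 6 h. Listing required 10 RPM in some library, so this ratio too is partly set by the listing. The cause was not tested.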

How the results depend on the processing

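The count of sites called with bicalutamide was 1 in the design used and did not hold under most alternatives. It was 2 with DESeq2, and 0 without a time term, with the 4 libraries and the hour as a block, without the 3 libraries with tags at near-empty sites, and with 18 libraries (added after seeing the data). Leaving out each of the 4 libraries compared in turn gave 0 to 1. With the 8 LNCaP libraries it was 4, namely the chromosome 6 and 14 sites and sites at chromosome 2 position 211421324 (18.5 and 0 RPM with bicalutamide, 0 and 0 RPM with ethanol) and chromosome 5 position 38595506 (19.5 and 0 RPM with bicalutamide, 0.148 and 0 RPM with ethanol). The log2 change of the chromosome 6 site was 4.72 with DESeq2, 1.19 without the ethanol library of 6 h, and 0 in the 24 h pair alone. Without the bicalutamide library of 6 h the fit returned 7.23. The remaining bicalutamide and ethanol libraries all held 0 tags there, so that value measures no change. DESeq2 called 9 sites for the difference between the lines, against 0 with edgeR. The neighbourhood count of 1 was 0 with sites joined within 1000 bp and 9 within 50000 bp, and 0 to 1 when each of those 4 libraries was left out.

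Among list medians of log2 change, R1881 lowered sites moved to -0.13 in the 24 h pair alone. Sites raised by DHT in BicR moved to -0.00863 (pseudocount 0.5 RPM), -0.00798 (2 RPM) and -0.0144 (24 h pair), and those lowered to -0.125 (24 h pair). Sites raised by bicalutamide in BicR moved to -0.0139 and -0.0125 with those pseudocounts, 0.0036 in the 6 h pair and -0.0373 in the 24 h pair. Those lowered moved to -0.134, -0.129 and -0.131 (24 h pair). With the replicate number as a block in the R1881 fit, the medians were 0.0115 over 372 raised and -0.0444 over 386 lowered sites, against 102 and 56 sites without it. The bicalutamide libraries carry no replicate numbers and pair by hour alone, and with that block the lowest adjusted p was 0.0572 by edgeR. At 3 tags per library, sites under about 0.4 RPM have no ratio that this depth resolves.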
